A study of Bos taurus with 30 samples.

Results

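Expression of miR-375 and miR-7, a pair of microRNAs tied to hormone-secreting cells, was examined in the anterior pituitary of bull calves reared on different planes of nutrition. Both were chosen by name, as the rows bta-miR-375 and bta-miR-7, and are 2 of the 1030 mature miRNAs listed. The samples were 30 Holstein-Friesian bull calves, each with 1 small RNA library made from a portion of the anterior lobe collected at 12 weeks of age. From week 2, the 15 calves of the high plane (HI) received 1.5 kg of milk replacer in 10 litres per day with unrestricted concentrate. The 15 calves of the moderate plane (MOD) received 0.5 kg in 4 litres per day, with concentrate restricted to 0.5 kg. Calves of both diets had water and hay, and all were intact males of the same breed, so the comparison holds for such calves at that age.

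MicroRNAs are short RNAs, cut from hairpin precursors, that guide Argonaute proteins to messenger RNAs and lower their translation or stability. In pancreatic islets miR-375 is among the most abundant miRNAs and restrains insulin secretion, and it is also found in the pituitary, where it has been tied to the production of pro-opiomelanocortin in corticotrophs. miR-7 is an ancient miRNA of neurosecretory and endocrine cells. In mice the loss of a miR-7 gene lowers gonadotropin production by the pituitary, and the circular RNA CDR1as carries many binding sites for miR-7. The anterior pituitary mixes corticotrophs, somatotrophs, lactotrophs, gonadotrophs and thyrotrophs with stromal and blood vessel cells. In such bulk tissue fewer cells of a type and less RNA per cell cannot be told apart.

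In the RefSeq annotation (ARS-UCD2.0) 1 gene for miR-375 was listed, MIR375, which lies between the protein-coding genes CRYBA2 and CFAP65. For miR-7, 2 genes were listed. MIR7-2 lies inside HNRNPK, which encodes an RNA-binding protein, and MIR7-3 lies between FEM1A and DPP9. The mature miR-7 has 1 row in the table, so that the contribution of each gene was not measured. Recovered reads of miR-375 were whole numbers in all 30 libraries, within 0.1 reads. Those of miR-7 were whole in 6 libraries and included a fraction of a read in the other 24. In all 30 libraries 3 times the value was whole. Reads were counted against the precursors of the miRNA database miRBase rather than these RefSeq genes. How many of those precursors carry miR-7 was not looked up here. How reads that match several precursors were combined is not given in the sources used here. The level of miR-7 relative to other miRNAs depends on it, and its effect on differences between calves was not tested.

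The libraries held 6650492 to 11086524 reads on miRNAs, with a median of 8672424 in HI and 8856734 in MOD calves. Levels are normalized CPM, that is, reads divided by the library total and by a TMM factor that corrects for composition, on a scale common to all libraries. When libraries were sorted by the number in their labels, the 9 with the highest numbers (5 HI and 4 MOD calves) differed from the other 21 (10 HI and 11 MOD calves). This division was found in these same data, and diet differences are also given within each set. HI replicate 1 stands apart by its smooth muscle and pericyte miRNA miR-143, at 181565 CPM against 80613 CPM in the next highest library. The TMM factor was over 1.1 in HI replicates 8 and 15. Its geometric mean was 1.02 in HI and 0.978 in MOD calves, so HI levels were divided by a larger factor on average. Liver miR-122 reached at most 0.209 CPM and the skeletal muscle miRNAs miR-1 and miR-206 at most 0.107 and 0.112 CPM, each under the 0.266 to 0.419 CPM that 3 reads, the limit of a count of 0, are worth. Such limits cover counting error only. Other striated muscle miRNAs reached higher levels, at most 77.3 CPM for miR-133a, 60.8 for miR-208b, 51.9 for miR-499, 8.43 for miR-133b and 3.99 for miR-208a.

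miR-375 had the highest mean level of all miRNAs, and miR-7 was in place 18. Expression of miR-375 averaged 146057 ± 24882 CPM (SD, n = 30), or 14.6% of the reads on miRNAs, with a range of 9.72% to 19.1%. It was the most abundant miRNA in 28 of the 30 libraries. The exceptions were HI replicate 1, where miR-143 was above it, and MOD replicate 14, where miR-148a was at 117137 CPM and miR-375 at 111904 CPM. The next miRNAs in the order of means were miR-148a at 93569 ± 13486 CPM and miR-26a at 59823 ± 11337 CPM (SD, n = 30). Within a library miR-375 was 0.64 ± 0.38 log2 units above miR-148a (SD, n = 30) and higher in 29 of 30 libraries, and it was above miR-26a in all 30. The first place of miR-375 was thus larger than the spread between calves.

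Expression of miR-7 averaged 17064 ± 3590 CPM (SD, n = 30), or 1.71% of reads. Its place in the order ran from 9 to 21 across libraries. Its neighbours in mean level were miR-486 (19194 CPM) and let-7a-5p (17100 CPM) above, and miR-141 (15042 CPM) and miR-181c (15007 CPM) below. These differences were within the spread between calves. miR-7 was above let-7a-5p in 11 of 30 libraries, by -0.03 ± 0.34 log2 units, and above miR-141 in 23 of 30, by 0.16 ± 0.24 log2 units (SD, n = 30). Together the pair took 16.3% of the reads on miRNAs, from 11.3% in the lowest library to 20.9% in the highest. Small RNA libraries capture miRNAs unevenly, so the order is one of reads rather than of molecules.

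**Figure D1:**
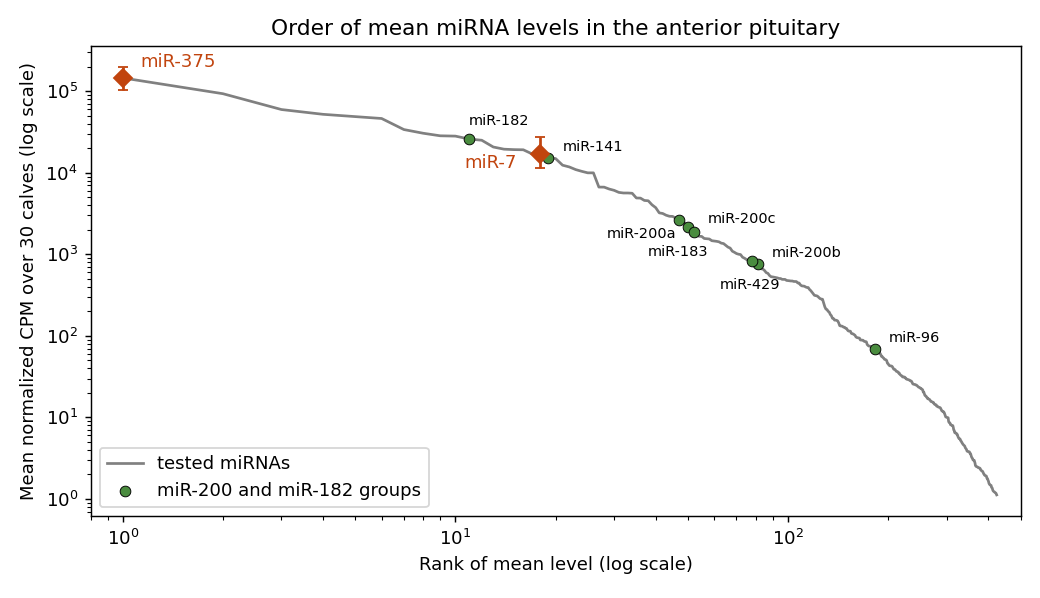
Mean level over 30 calves (y axis, normalized CPM, log scale) against rank (x axis, log scale) for the tested miRNAs, with miR-375 and miR-7 as diamonds whose bars run from the lowest to the highest calf, and the miR-200 and miR-182 groups as circles. miR-375 is at rank 1 and 146057 CPM, and miR-7 at rank 18 and 17064 CPM, between miR-182 and miR-141.

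Epithelial and neuroendocrine miRNAs were abundant beside them. All 8 members of a list of miRNAs of endocrine epithelium (the miR-200 family, which maintains the epithelial state, with miR-141 and miR-429, and the miR-182, miR-183 and miR-96 cluster, found in sensory and neuroendocrine cells) were detected. The most abundant was miR-182, for which HI calves averaged 24421 ± 3716 and MOD calves 27578 ± 4140 CPM, and the least was miR-96, at 64.0 ± 10.0 and 72.4 ± 21.7 CPM (SD, n = 15 each). The miRNAs of exocrine pancreas, miR-216a, miR-216b and miR-217, which accompany islet miRNAs in whole pancreas, summed to between 3.10 and 317 CPM per library.

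The first comparison asked whether the plane of nutrition altered miR-375 or miR-7. Of the 2 members, 0 passed FDR < 0.1 in limma, and 0 of 2 were under an unadjusted p of 0.05 in limma, edgeR or DESeq2, where 12.6%, 13.4% and 12.9% of the 419 miRNAs tested were. For comparison, 3.58% of the 419 miRNAs tested passed FDR < 0.1 in limma (1.91% higher and 1.67% lower in HI calves), 0.477% passed it with a fold change over 1.5, 4.77% passed FDR < 0.1 in edgeR's quasi-likelihood test, and 5.73% did in DESeq2. The calls divided into 8 higher and 7 lower with the deposited scaling, and into 16 and 2 on total reads, 8 and 2 with upper quartile scaling, and 17 and 3 with both members left out of the library size. Expression of miR-375 in HI calves ran from 103334 to 197219 CPM with a median of 136620, and in MOD calves from 111904 to 191328 CPM with a median of 146345. The ranges overlapped almost wholly. A total of 3 HI calves were below the lowest MOD calf, 1 exceeded the highest, and 6 of 15 exceeded the median of MOD calves. HI calves averaged 143338 ± 29171 and MOD calves 148775 ± 20390 CPM (SD, n = 15 each).

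On the log2(CPM + 1) scale the difference in miR-375, HI minus MOD, was -0.07 (standard error 0.09, 95% interval -0.25 to 0.11), with FDR = 0.873 from limma with Benjamini-Hochberg adjustment over 419 miRNAs. As a fold change this was 0.953, with an interval of 0.842 to 1.08, so a change of 1.5-fold in either direction, the threshold of the study, lay outside it. The median log2 difference of all 419 was 0.02. On total reads, with no TMM factor, the log2 difference in miR-375 was -0.01. The share of reads that miR-375 took was 14.6% ± 2.82 for HI and 14.5% ± 1.89 for MOD calves (SD, n = 15 each).

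Expression of miR-7 in HI calves ran from 11597 to 23419 CPM with a median of 16116, and in MOD calves from 12924 to 27593 CPM with a median of 16550. A single HI calf was below the lowest MOD calf, none exceeded the highest, and 7 of 15 exceeded the median of MOD calves, so the groups overlapped. HI calves averaged 16225 ± 3011 and MOD calves 17902 ± 4016 CPM (SD, n = 15 each). The highest value belonged to MOD replicate 15, and without it the log2 difference moved from -0.13 to -0.09. The log2 difference had a standard error of 0.10 and a 95% interval of -0.34 to 0.07, with FDR = 0.721 from limma. The corresponding fold change was 0.912 (interval 0.793 to 1.05), which also leaves out a change of 1.5-fold. On total reads, with no TMM factor, the log2 difference in miR-7 was -0.07 (FDR = 0.762 from limma).

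**Figure D2:**
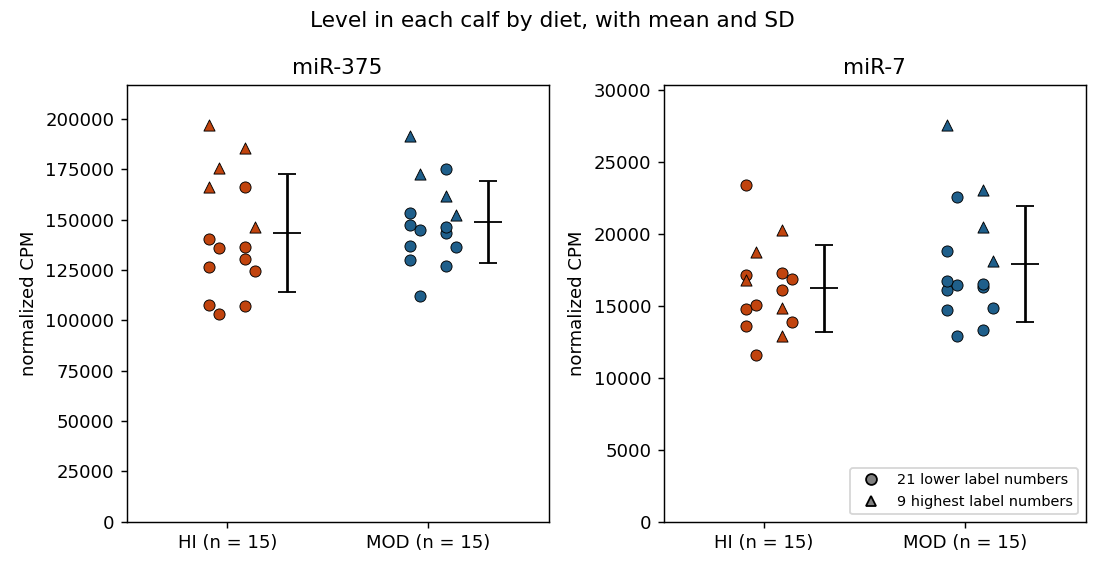
Normalized CPM (y axis) of miR-375 and miR-7 in each calf, by diet (x axis, 15 calves each), with the mean and SD beside the points; triangles are the 9 libraries with the highest label numbers. For both miRNAs the ranges of HI and MOD calves overlap, and the medians of miR-375 are 136620 and 146345 CPM.

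Counting error was small beside the differences between calves. With 895110 to 2093252 reads of miR-375 per library the relative counting error was at most 0.106%, and with 102712 to 269260 reads of miR-7 it was at most 0.312%. As shares of reads, the coefficient of variation between calves was 16.2% for miR-375 and 21.3% for miR-7. The standard deviation of the log2 values about the diet means was 0.25 for miR-375, which was place 214 of 419 from the most variable, and 0.28 for miR-7, place 165. The median over all miRNAs tested was 0.25, so the most abundant miRNA of the gland varied between calves about as much as the median miRNA did.

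A difference in spread between the diets did not pass the test for either member. For miR-375 the mean distance from the diet median was 0.23 log2 units in HI and 0.14 in MOD calves (two-sided permutation test, p = 0.133). For miR-7 it was 0.20 and 0.22 (p = 0.718, same permutation test).

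The ratio of the pair within a library does not depend on how libraries are scaled. Reads of miR-375 outnumbered those of miR-7 by 9.11 in the median HI calf, with a range of 4.57 to 13.3, and by 8.37 in the median MOD calf, with a range of 4.96 to 11.4. The lowest ratios belonged to HI replicate 7 and MOD replicate 14, in which miR-375 was among the lowest and miR-7 among the highest values. The mean log2 ratio was 3.14 ± 0.38 in HI and 3.07 ± 0.33 in MOD calves (SD, n = 15 each), a difference of 0.06 (standard error 0.13, two-sided permutation test, p = 0.627). Thus no shift of one member against the other was detected between diets.

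Levels of miR-375 were higher in the 9 libraries with the highest label numbers. In them it ran from 146495 to 197219 CPM with a median of 172596, and in the other 21 from 103334 to 175416 CPM with a median of 136314. Of the 9 highest values of miR-375, 7 belonged to this set, and 17 of the 21 other libraries lay below its lowest value. The mean log2 difference between the sets was 0.36, and it was 0.38 on total reads and 0.45 with both members left out of the library size. It was seen in both diets, at 0.45 in HI and 0.27 in MOD calves. No test is given, because the sets were found in these data. The ranges of depth were 7926451 to 11086524 reads in the 9 (median 9316262) and 6650492 to 9577361 in the 21 (median 8672424). The part of depth in the difference was not tested.

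For miR-7 the sets overlapped more. As a share of reads it ran from 1.44% to 2.74% in the 9 (median 1.87%) and from 1.2003% to 2.48% in the 21 (median 1.62%), and the mean log2 difference in CPM was 0.24. In MOD calves this difference between sets was 0.45 and in HI calves 0.07. Within the set of 9, the 4 MOD calves took 1.74% to 2.74% and the 5 HI calves 1.44% to 2.06% of reads.

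**Figure D3:**
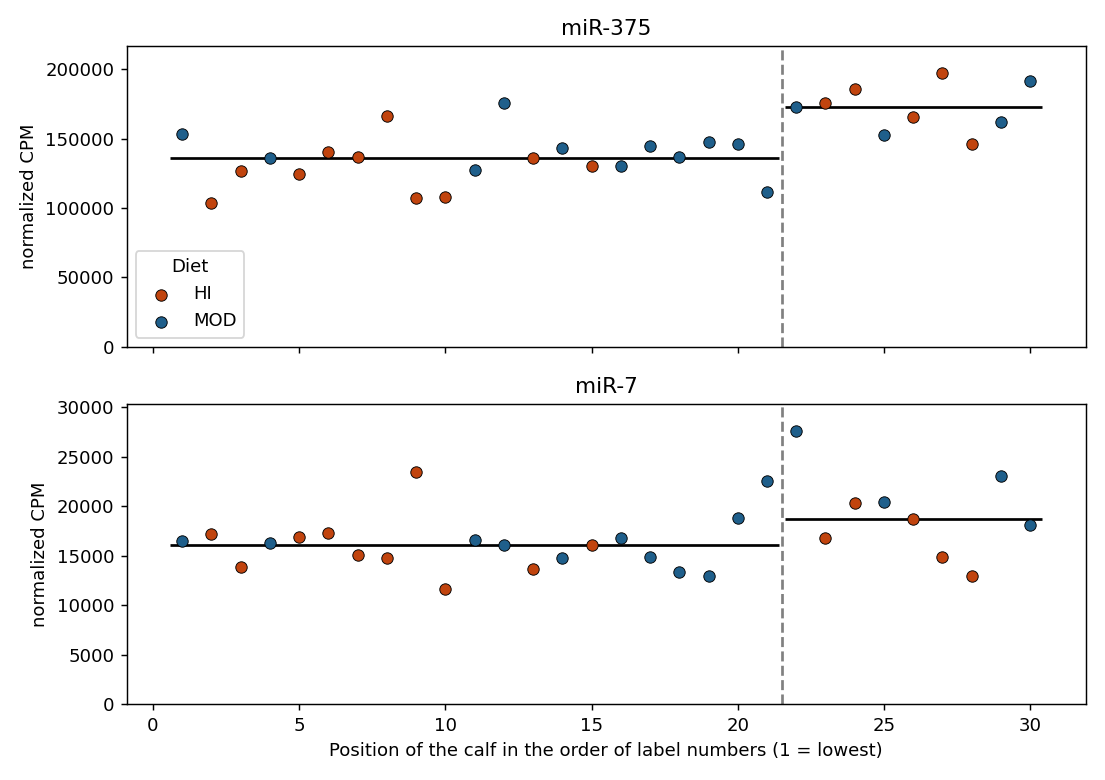
Normalized CPM (y axis) of miR-375 (upper) and miR-7 (lower) against the position of each calf in the order of label numbers (x axis), coloured by diet, with horizontal lines at the median of each set and a dashed line between the 21 lower and the 9 highest numbers. The median of miR-375 is 136314 CPM before the line and 172596 CPM after it, and that of miR-7 is 16116 and 18713 CPM.

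Within the sets the diet difference of neither member passed 0.05. For miR-375 the log2 difference, HI minus MOD, was -0.15 within the 21 libraries (exact permutation test, p = 0.0885), where 1 of 10 HI calves exceeded the median of MOD calves. Within the 9 it was 0.04 (exact permutation test, p = 0.714). For miR-7 it was -0.04 within the 21 (exact permutation test, p = 0.744) and -0.42 within the 9 (exact permutation test, p = 0.0635), where none of the 5 HI calves exceeded it. The log2 ratio of miR-375 to miR-7 changed direction between the sets, at -0.11 within the 21 (exact permutation test, p = 0.481) and 0.45 within the 9 (exact permutation test, p = 0.0635).

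A test of whether the diet difference itself differed between the sets gave 0.19 for miR-375 (standard error 0.14, FDR = 0.827 from limma) and -0.38 for miR-7 (standard error 0.19, FDR = 0.786). In that test 0% of the 419 miRNAs passed FDR < 0.1 (limma), with 21 at an unadjusted p under 0.05. With the set as a block, the log2 diet difference was -0.09 for miR-375 (95% interval -0.23 to 0.04, FDR = 0.603 from limma) and -0.15 for miR-7 (-0.34 to 0.04, FDR = 0.547). The sets were found in these data, so neither the test nor the narrower interval for miR-375 is independent of that choice.

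By their later digits the label numbers fall into 4 ranges, of which one holds 8 HI and 8 MOD calves. In that range the log2 difference was -0.19 for miR-375 (exact permutation test, p = 0.0957) and -0.05 for miR-7 (exact permutation test, p = 0.718). Another holds 2 HI and 5 MOD calves and gave 0.31 for miR-375 (exact permutation test, p = 0.190) and -0.02 for miR-7 (exact permutation test, p = 0.857). The other 2 ranges have only 1 MOD calf each and allow no test.

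**Figure D4:**
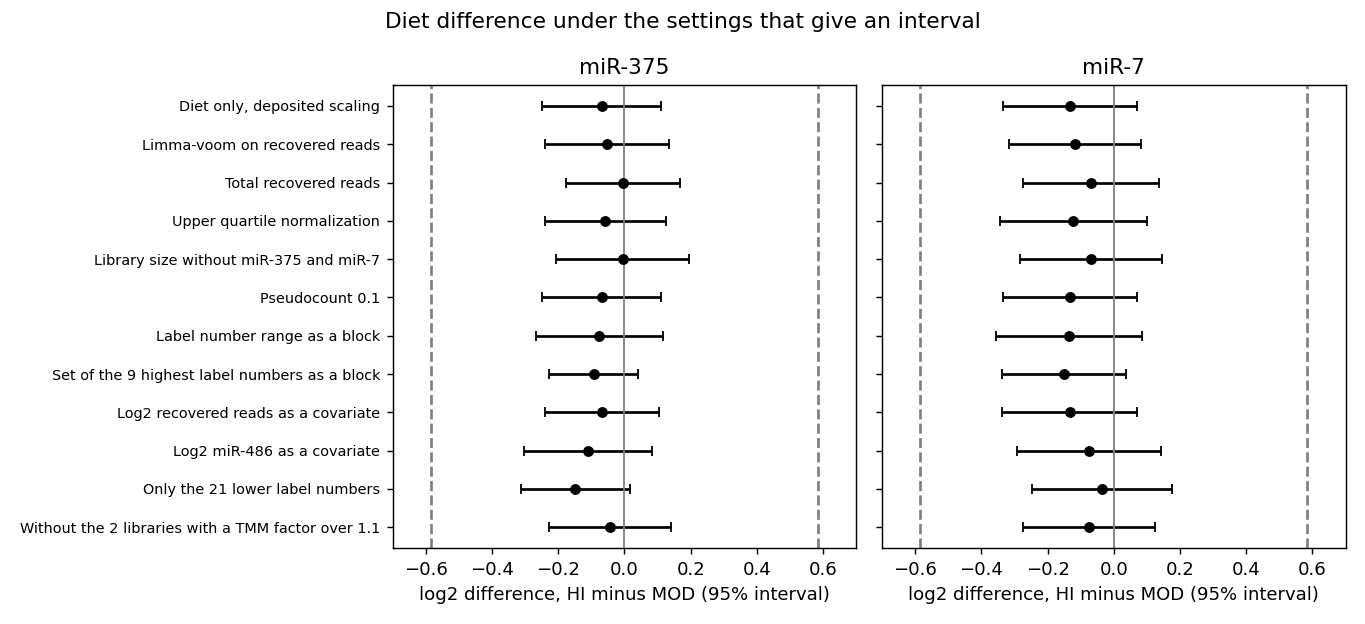
Log2 difference HI minus MOD with its 95% interval (x axis) for miR-375 and miR-7 under the settings named on the y axis. These do not include fits that leave out 1 calf, nor the 9 highest label numbers alone. Within those 9 the difference of miR-7 was -0.42 (standard error 0.17). Dashed lines mark a fold change of 1.5. All plotted points lie between -0.15 and 0, and each plotted interval includes 0 and stays inside the dashed lines.

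A correlation between the members over calves was not detected. Pearson's r between their log2 levels was 0.14 (permutation test, p = 0.471, adjusted p = 0.528 over 5 relations) and Spearman's rho was 0.11 (permutation test, p = 0.554) over 30 calves. Without the 2 calves farthest from the median of miR-7, r was -0.08. The values moved with the scaling: r was 0.10 on total reads and 0.26 with both members left out of the library size, and without the 2 farthest calves it was 0.15 and 0.32. Within the 21 libraries r was -0.28 (permutation test, p = 0.225) and turned to 0.13 without the 2 farthest calves. Within the 9 it was 0.03 (exact permutation test, p = 0.935), and on total reads it was -0.42 (exact permutation test, p = 0.266). The other 4 relations set each member against log2 depth and against miR-486, an miRNA abundant in red blood cells. With the deposited scaling r over 30 calves was largest for miR-375 with depth, at 0.35 (permutation test, p = 0.0561, adjusted p = 0.223) and rho = 0.30 (permutation test, p = 0.107), and without the 2 calves of most extreme depth r was 0.25. On total reads it was 0.23 (permutation test, p = 0.223), and there miR-486 with miR-375 was farther from 0, at -0.34 (permutation test, p = 0.0641, adjusted p = 0.320), against -0.13 with the deposited scaling (permutation test, p = 0.509). miR-486 with miR-7 gave 0.32 with the deposited scaling (permutation test, p = 0.0892, adjusted p = 0.223) and 0.22 on total reads (permutation test, p = 0.239). Without the 2 calves farthest from the median of miR-486, r with the deposited scaling was 0.08 for miR-7 and -0.34 for miR-375. On total reads these values were 0.23 and -0.25. For miR-375 with depth, r within the 21 libraries was -0.02 (permutation test, p = 0.941), and within the 9 it was 0.77 (exact permutation test, p = 0.0205, adjusted p = 0.102).

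**Figure D5:**
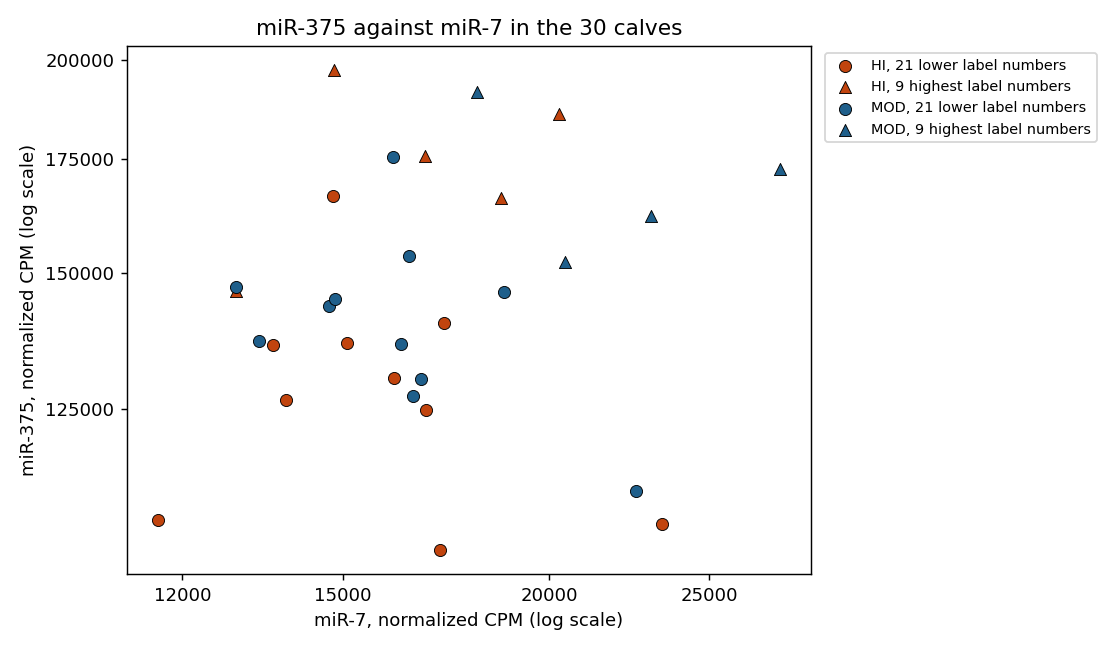
Level of miR-375 (y axis) against miR-7 (x axis), both as normalized CPM on log scales, in the 30 calves, coloured by diet and with triangles for the 9 highest label numbers. The points form no line (r = 0.14), and the triangles lie toward higher miR-375.

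The miRNAs most like each member were different. After subtraction of the diet means, the 5 with the highest Pearson correlation with miR-375 over 30 calves were miR-429 (r = 0.81), miR-11971 (0.81), miR-95 (0.78), miR-423-3p (0.76) and miR-125a (0.72). miR-429, an epithelial member of the miR-200 family, averaged 819 ± 133 CPM (SD, n = 30), and its r with miR-375 was 0.72 within the 21 libraries and 0.30 within the 9. The 5 most like miR-7 were miR-96 (r = 0.70), miR-200a (0.66), miR-29d-3p (0.65), miR-106b (0.63) and miR-24-3p (0.63). miR-96, of the neuroendocrine miR-182 cluster, had an r with miR-7 of 0.51 within the 21 libraries and 0.78 within the 9. Among the 418 other miRNAs, miR-7 was in place 156 by likeness to miR-375. These correlations share library size, depth and the label sets, and are given as a description.

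Of the miRNAs most like the members, miR-125a passed FDR < 0.1 between diets, with a log2 difference of -0.20 (standard error 0.06, FDR = 0.0468 from limma). The other 9 did not. In the endocrine epithelium list 0 of 8 passed FDR < 0.1 in limma, edgeR or DESeq2, with 1, 1 and 2 at an unadjusted p under 0.05, against 12.6%, 13.4% and 12.9% over all miRNAs tested. The median log2 difference was -0.04, against 0.02 over all miRNAs tested. Its lowest FDR was 0.329, for miR-182. The second list held miRNAs that have been studied beside miR-375 and miR-7 in islet hormone secretion, namely miR-9, miR-29a, miR-30d, miR-33a, miR-124a, miR-132, miR-184 and miR-212. Of its 9 rows 7 were tested, with 0 higher and 2 lower in HI calves at FDR < 0.1, where 1.67% of all 419 were lower, and a median log2 difference of 0.13. Both lists were chosen with earlier results of these data known, so their counts are given as a description.

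The members that passed were miR-29a, which acts on exocytosis and transporter genes in islets, and miR-33a, which lies in the gene of the cholesterol regulator SREBF2. HI calves averaged 2638 ± 143 and MOD calves 2914 ± 208 CPM of miR-29a (SD, n = 15 each), a log2 difference of -0.14 (standard error 0.04, FDR = 0.0365 from limma). For miR-33a the averages were 9.25 ± 1.02 and 11.01 ± 1.34 CPM, a log2 difference of -0.23 (standard error 0.06, FDR = 0.0396 from limma). Both stayed lower in HI calves on total reads, at -0.08 and -0.17, but with FDR = 0.411 and 0.182 neither passed there (limma). Nor did they with both members left out of the library size (FDR = 0.437 and 0.204), and miR-29a did not with upper quartile scaling (FDR = 0.131) nor miR-33a with miR-486 as a covariate (FDR = 0.134). The other members tested did not pass in limma. Of these, miR-30d was lower in HI calves, at -0.15 (FDR = 0.227). Higher were miR-132 and miR-212, a pair of the same cluster, at 0.13 each (FDR = 0.721 and 0.650). So were miR-184 at 0.22 and miR-9-5p at 0.28 (FDR = 0.721 each).

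Of the miRNAs that mark other cells, 0 passed FDR < 0.1 between diets in limma. The numbers tested were 3 of 3 for red cells, 4 of 4 for white cells, 4 of 7 for striated muscle, 6 of 11 for neural cells (miR-129 and miR-129-5p among them held identical values), 5 of 5 for stroma, 2 of 2 for endothelium and 3 of 3 for exocrine pancreas, and liver miR-122 was under the filter. An unadjusted p under 0.05 was reached by 3 red cell, 1 muscle and 1 stromal miRNA in limma, against 12.6% of all miRNAs tested. In edgeR's quasi-likelihood test and in DESeq2, which called 4.77% and 5.73% of all miRNAs, 2 red cell miRNAs passed FDR < 0.1, miR-144 and miR-451 of the erythroid cluster, and so did miR-208b, which lies in a myosin gene of heart and slow muscle. All 3 were higher in HI calves, by 0.46, 0.55 and 0.41 on the log2 scale in limma, whereas red cell miR-486 was lower, at -0.27. The median log2 differences of the lists, in the order above, were 0.46, 0.14, -0.04, -0.10, 0.15, -0.03 and 0.14.

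Stromal miRNAs summed to between 32132 and 183329 CPM in HI and between 33338 and 76179 CPM in MOD calves. Nearly all of this was miR-143, with a mean of 48968 CPM, and the next, miR-199a-3p, averaged 472 CPM. The highest sum was in HI replicate 1, the calf with the lowest miR-375, and without it the log2 difference in miR-375 was -0.04 (FDR = 0.941 from limma). Red cell miRNAs summed to between 10578 and 24489 CPM in HI and between 15557 and 27422 CPM in MOD calves, and with miR-486 as a covariate the diet difference was -0.11 for miR-375 and -0.07 for miR-7. The sum was nearly all miR-486, with a mean of 19194 CPM, against 130 for miR-451 and 4.44 for miR-144. On the log2 scale miR-451 and miR-144 were higher in HI calves, by 0.55 and 0.46, and miR-486 was lower, at -0.27. The part of stroma, red cells or other cell types in the members' levels was not tested.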

How the data were processed

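Small RNA of 30 anterior pituitaries was sequenced, with 1 library per calf. Adapters were trimmed with Cutadapt, reads of 15 to 28 bases were kept, other classes of short RNA were removed, and miRDeep2 counted the bovine miRNAs on the ARS-UCD1.2 genome. The authors deposited a normalized signal, CPM scaled by TMM factors, rather than raw counts. Low values rise in steps of 1 read, from which the reads were computed. In each library no less than 95.0% of the low values tried lay within 0.02 reads of a whole number.

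Calves were grouped by the diet in their labels. The main test was limma 3.58.1 in R 4.3.3 (eBayes, trend) on log2(CPM + 1), for 419 miRNAs kept by filterByExpr of edgeR, with Benjamini-Hochberg adjustment. A count test had been planned should the values be raw counts. Because they were not, edgeR 4.0.16 and DESeq2 1.42.0 on recovered reads became alternatives, and edgeR's quasi-likelihood test called 20 miRNAs at FDR < 0.1. The thresholds were FDR < 0.1 and a fold change of 1.5. Single values were compared with permutation tests of 100000 resamples (SciPy 1.17.1), exact within sets of label numbers. The scripts were tested on simulated data.

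The members and lists were chosen with earlier results of these data known. Besides the 2 members, the miRNAs named are their neighbours in mean level, the 5 most correlated with each, list members, and those needed to describe single libraries. Mature sequences, seeds and targets were not analysed here.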

Additional observations from a re-analysis of the deposited data

Results flagged for a closer look

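Among the 10 HI calves outside the 9 highest label numbers, miR-7 in HI replicate 7 was far from the rest, at 23419 CPM against 11597 to 17274 CPM in the other 9. In this calf miR-375 was at 106995 CPM, the next to lowest value of the 30. Of 9 groups of calves looked at in this way (miR-375, miR-7 and their ratio), 1 held such a calf. Chance gives such a calf in about 1 of 20 groups, or 0.45 of 9. Without this calf the log2 diet difference in miR-7 was -0.17 (FDR = 0.478 from limma).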

How the results depend on the processing

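Under 16 alternatives (tests, scalings, filters, pseudocount, covariates, and 2 choices of libraries made after seeing the data) the log2 difference HI minus MOD stayed below 0 and did not pass FDR < 0.1, from -0.15 to -0.01 for miR-375 (FDR 0.497 to 0.991) and from -0.15 to -0.04 for miR-7 (FDR 0.547 to 0.901). With each of the 30 calves left out in turn it was -0.10 to -0.04 for miR-375 and -0.17 to -0.09 for miR-7. A fit of the 9 highest label numbers alone was not among the 16 alternatives. Within those 9 the log2 diet difference was 0.04 for miR-375 and -0.42 for miR-7 (exact permutation tests, p = 0.714 and 0.0635). The difference in the log2 ratio was 0.01 to 0.13 with 1 calf left out. It turned to -0.11 within the 21 lower label numbers (exact permutation test, p = 0.481). Within the 9 highest it was 0.45 (exact permutation test, p = 0.0635). With 1 calf left out, the difference in spread was 0.06 to 0.10 for miR-375 and -0.049 to 0.012 for miR-7. For miR-7 it turned to 0.012 without MOD replicate 15. The cause was not tested. The number of miRNAs past FDR < 0.1, 15, was 24 with DESeq2 and 9 with miR-486 as a covariate, and 14 to 20 with 1 calf left out. Past FDR < 0.1 and fold change > 1.5 were 2 miRNAs. This number was 4 in edgeR's quasi-likelihood and exact tests and in DESeq2, 0 with miR-486 as a covariate (limma, with 42 at an unadjusted p under 0.05), 1 in the 21 lower label numbers or without the 2 libraries with a TMM factor over 1.1, and 1 to 3 with 1 calf left out, with 1 without HI replicate 4. The study blocked its calves by farm, sire, age and bodyweight before giving them a diet. The labels used here do not name these blocks. No paired analysis was possible because no number in the labels ties an HI calf to a MOD calf. Nothing in the labels names a batch, and the label numbers were used in its place. Counting error of the members was under 1%, a value that does not cover other effects of depth on their levels.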
